A study of Danio rerio with 15 samples.

Results

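The 8 normal brain libraries among the 15 libraries of a zebrafish study of NRAS-driven brain tumors (CNS-PNET, an embryonal brain tumor type) were described on their own. They were chosen by the tissue label, which reads normal brain, and the other 7 libraries, labelled brain tumor, were not used. The labelled source is whole zebrafish brain, dissected from control fish, kept in RNAlater and frozen. The labels give no strain, transgene, sex, age or treatment for these fish, and they do not say that each library came from a separate fish or whether brains were pooled, so the spread between libraries may be in part technical. The libraries carry the numbers 1, 2, 3, 4, 9, 10, 11 and 15, and each is called normal brain with its number below. They held 14013245 to 18239799 counts, so that 3 reads of a gene, the limit that a count of 0 allows, amounted to 0.164 to 0.214 CPM (counts per 1000000 counts of the library). This limit covers counting error only.

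The fish brain holds a forebrain (telencephalon, and diencephalon with habenula and hypothalamus), a midbrain with a large optic tectum, a cerebellum and a hindbrain that runs into the spinal cord. Transcription factors made in restricted zones label these regions, such as TBR1 in the telencephalon and HOX genes in the hindbrain and spinal cord. Radial glia persist in adult fish and take on many tasks of mammalian astrocytes. An ancestor of the teleost fishes went through a duplication of its whole genome, so many genes that mammals have once exist as a pair of copies. In the gene names used here, the copies of a pair either end in a and b or share a symbol, in which case the Ensembl ID is given. Levels compared between genes are in FPKM (counts per kilobase of the gene and per 1000000 counts), and levels of a gene compared between libraries are in CPM after trimmed-mean (TMM) scaling.

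Transcripts of mitochondria, ependymin and myelin basic protein led in normal brain. Of 22513 genes measured, 16757 had a mean of at least 1 FPKM (74.4%), 7291 had at least 10 FPKM and 615 at least 100 FPKM. The 100 most abundant genes made up 32.9% of the summed FPKM, and 20.4% when counts were not divided by length. The 13 protein genes of the mitochondrial genome with a symbol held 15.7% ± 1.08 of the FPKM of a library (SD, n = 8). MT-CO1, the core subunit of cytochrome c oxidase, was the highest gene at 14838 ± 1176 FPKM (SD, n = 8), followed among genes with a symbol by MT-CO2 at 11344 FPKM and MT-CO3 at 10857 FPKM.

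The most abundant gene of the nuclear genome with a symbol was epd, which encodes ependymin, a secreted glycoprotein of the fish brain and its fluid. It had 5820, 11113, 7158, 9136, 4970, 8095, 4925 and 6494 FPKM in normal brain 1, 2, 3, 4, 9, 10, 11 and 15. Normal brain 2 was the highest and normal brain 11 the lowest, and the SD of its log2 CPM was 0.42. Next came mbpa, which encodes myelin basic protein, with 3451 to 4302 FPKM in 7 libraries and 5597 FPKM in normal brain 4. Among the 15 most abundant genes 3 had no symbol in the table of names and are not described further.

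**Figure D1:**
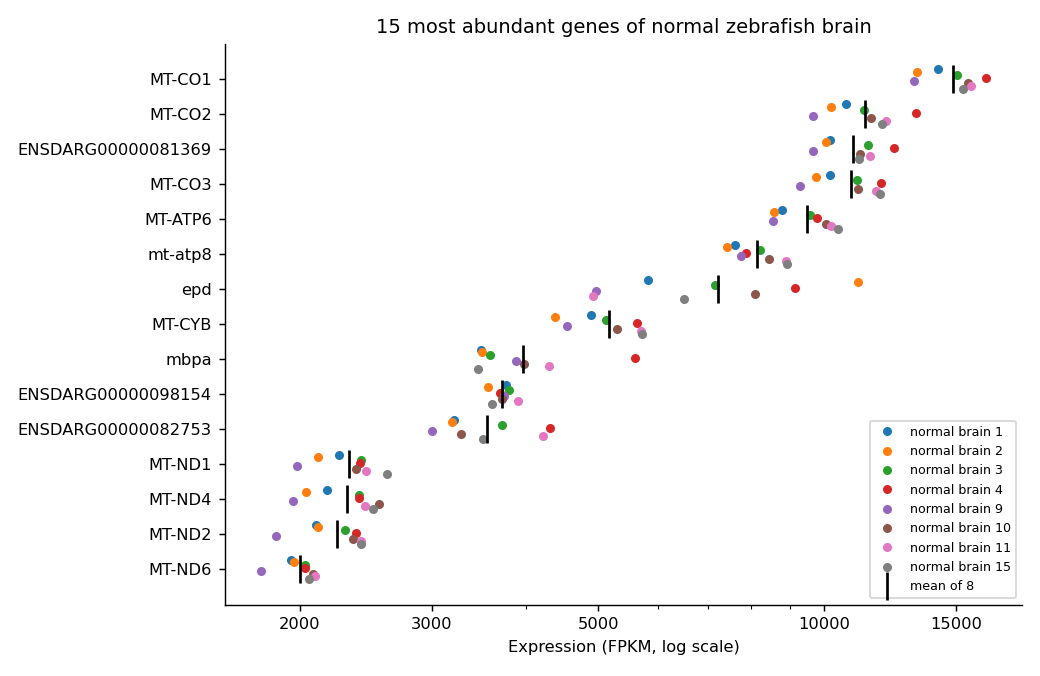
Expression (FPKM, log scale) of the 15 genes with the highest mean in normal zebrafish brain; each point is 1 of the 8 libraries and the bar is the mean. MT-CO1 leads at 14838 FPKM, and epd spreads the most of these genes between libraries, 4925 to 11113 FPKM.

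Markers of the cell types of brain were present in every library. Of 52 pan-neuronal genes 50 had a mean of at least 1 FPKM, where 74.4% of all genes did. The median over members was 114 FPKM, and the summed level of the list stayed between 8668 and 9611 FPKM across the libraries. SNAP25 (ENSDARG00000020609), part of the machinery that fuses synaptic vesicles, had 1383 to 1646 FPKM, an SD of 0.07 in log2 CPM. The synuclein gene sncb had 492 ± 39.5 FPKM and the neuronal calcium sensor gene vsnl1b 418 ± 32.7 FPKM (SD, n = 8).

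Of 39 genes of glutamate transmission all had at least 1 FPKM, and of 34 genes of GABA and glycine transmission 33 did. Of all genes 74.4% did. GRIN1 (ENSDARG00000027828), the subunit common to NMDA receptors, had 227 ± 20.5 FPKM, and the kinase genes CAMK2A (ENSDARG00000053617) and CAMK2B (ENSDARG00000011065) had 131 ± 32.2 and 129 ± 10.2 FPKM. The GABA-synthesizing enzymes GAD1 (ENSDARG00000027419) and GAD2 had 245 ± 17.6 and 204 ± 13.7 FPKM. CAMK2A was lowest in normal brain 11 at 169 CPM and highest in normal brain 2 at 361 CPM, a wider range than that of GAD2, 1229 to 1448 CPM. Monoaminergic and cholinergic genes were lower, with a median of 4.50 FPKM over 28 members. Their highest member was ACHE, the enzyme that degrades acetylcholine, at 92.3 ± 4.90 FPKM, followed by the monoamine oxidase gene mao at 20.7 FPKM and CHAT, which makes acetylcholine, at 20.4 FPKM.

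Over members with a mean of at least 5 CPM, the median SD of log2 CPM was 0.16 in the astroglial list and in the myelin list. It was 0.30 in the microglia and macrophage list and 0.12 in the pan-neuronal list. These values cover 33 of 37, 24 of 27, 25 of 43 and 47 of 52 members, in that order. The radial glial and astroglial list was led by FABP7 (ENSDARG00000007697), a fatty acid binding protein of radial glia, at 897 ± 79.9 FPKM. Glutamine synthetase (GLUL, ENSDARG00000099776) had 791 ± 55.0 FPKM, and S100B, a calcium binding protein, had 608 ± 49.0 FPKM. The intermediate filament gene GFAP was lower, at 41.9 ± 17.9 FPKM, and varied more, with 208 CPM in normal brain 4 and 73.0 CPM in normal brain 11. In the myelin list mbpa was followed by cd59a, a complement inhibitor found in fish myelinating glia, at 996 ± 159 FPKM and by the proteolipid gene plp1b at 690 ± 87.6 FPKM. The myelin list as a whole stood 0.27 log2 units above its members' medians in normal brain 4 and between -0.09 and 0.03 log2 units from them in the other 7 libraries. The list of oligodendrocyte precursor genes was led by LHFPL3 at 90.3 ± 5.05 FPKM and the proteoglycan gene bcan at 39.5 ± 5.84 FPKM. The phosphatase gene PTPRZ1 (ENSDARG00000020871) followed at 34.5 ± 2.45 FPKM and OLIG2 at 26.1 ± 3.85 FPKM. PDGFRA, the receptor used to mark oligodendrocyte precursors in mammals, had 1.33 ± 0.434 FPKM. Which cells made these transcripts was not tested.

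Genes of less abundant cell types were also counted. Among microglial and macrophage genes, 33 of 43 had at least 1 FPKM (76.7%), a share near the 74.4% of all genes. The antigen presentation gene cd74a had 258 ± 41.7 FPKM and the lipoprotein gene apoeb 116 ± 37.1 FPKM. The apolipoprotein gene apoc1 had 118 to 204 CPM in 7 libraries and 1078 CPM in normal brain 1, the library with liver transcripts described below. Vessel genes were led by the glucose transporter gene SLC2A1 (ENSDARG00000001437) at 56.7 ± 13 FPKM, MFSD2A (ENSDARG00000035909), a lipid carrier of the blood-brain barrier, at 31.0 ± 2.15 FPKM and the amino acid carrier gene SLC7A5 at 22.7 ± 3.73 FPKM. Cilia genes of the ependyma were low, with a median of 1.08 FPKM over 29 members, led by the transcription factor genes rfx3 at 5.43 FPKM and RFX2 at 5.06 FPKM and by RSPH1, a part of motile cilia, at 4.15 FPKM.

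Genes of dividing cells were low but counted in every library. PCNA, the replication clamp, had 51.8 to 66.2 CPM, mki67 9.34 to 20.2 CPM and TOP2A 9.01 to 19.8 CPM. Normal brain 10 was the highest library for all 3 of these genes. Genes shared with young neurons, such as STMN1 (ENSDARG00000033655, 877 ± 85.8 FPKM) and tubb2b (474 FPKM), led that list. In bulk tissue, fewer cells of a type and less RNA per cell cannot be told apart, here and in all that follows.

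Transcripts of the blood were of the adult kind. The adult alpha globin gene hbaa1 had 102 to 188 FPKM, and the embryonic globin gene hbae4, the only member of the embryonic list in the table, had 2.31 to 5.13 FPKM. Lymphocyte genes were scarce, with 3 of 25 members at 1 FPKM or more, where 74.4% of all genes were. SYK led that list at 10.9 FPKM, and the immunoglobulin gene ighm had 1.06 to 3.25 CPM in 7 libraries and 9.48 CPM in normal brain 4.

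Over 13843 genes with a mean of at least 5 CPM, the median SD of log2 CPM was 0.14, and 276 genes (1.99%) had an SD of at least 1 and are called variable. Normal brain 1 was the highest library for 160 of these genes, normal brain 4 for 59 and normal brain 2 for 21. In 181 of the 276, a single library stood far from the other 7, high in 159 genes and low in 22. Without normal brain 1 the number of variable genes was 141, and without normal brain 1, 2 and 4 it was 73. With DESeq2's variance-stabilized counts, which compress low counts, it was also 73.

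**Figure D2:**
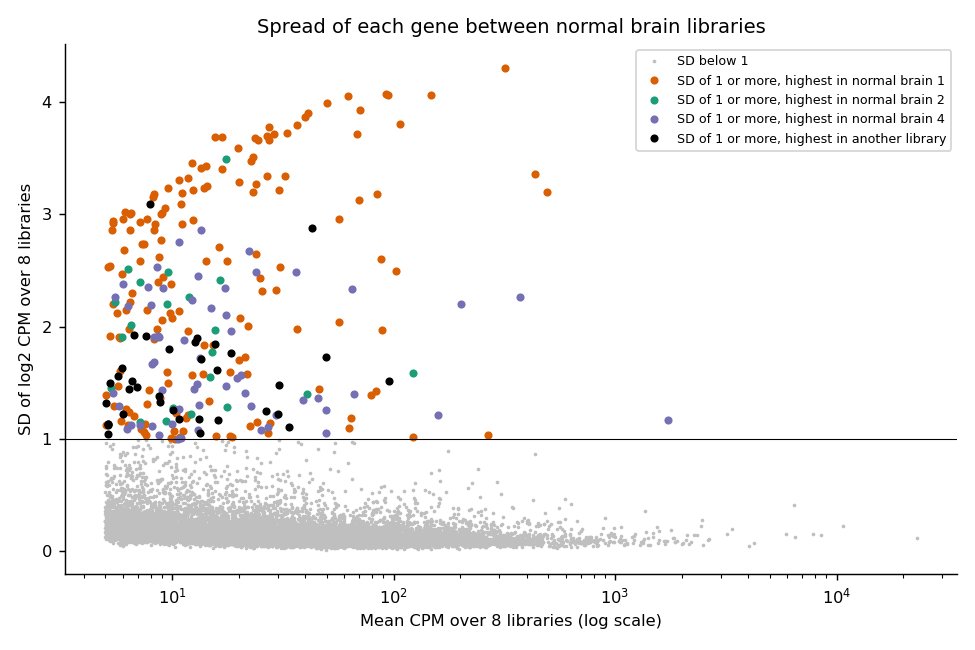
SD of log2 CPM over the 8 normal brain libraries against mean CPM (log scale) for the 13843 genes with a mean of at least 5 CPM; each point is a gene, and the 276 genes at or above the line at an SD of 1 are coloured by the library in which they were highest. Genes highest in normal brain 1 (160 of 276) form the upper part of the cloud.

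The median correlation of log2 CPM across genes with the other libraries was 0.940 for normal brain 1, 0.966 for normal brain 4 and 0.977 to 0.982 for the rest. Differences in level between genes, which the libraries share, enter these values. Of 39 gene lists 6 had a library in which the median member lay at least 1 log2 unit from its own median over the 8 libraries. These were the liver, retina, pineal, skin, muscle and hindbrain lists. With normal brain 1, 2 and 4 left out 2 lists reached this size, and with variance-stabilized counts 1 list did.

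**Figure D3:**
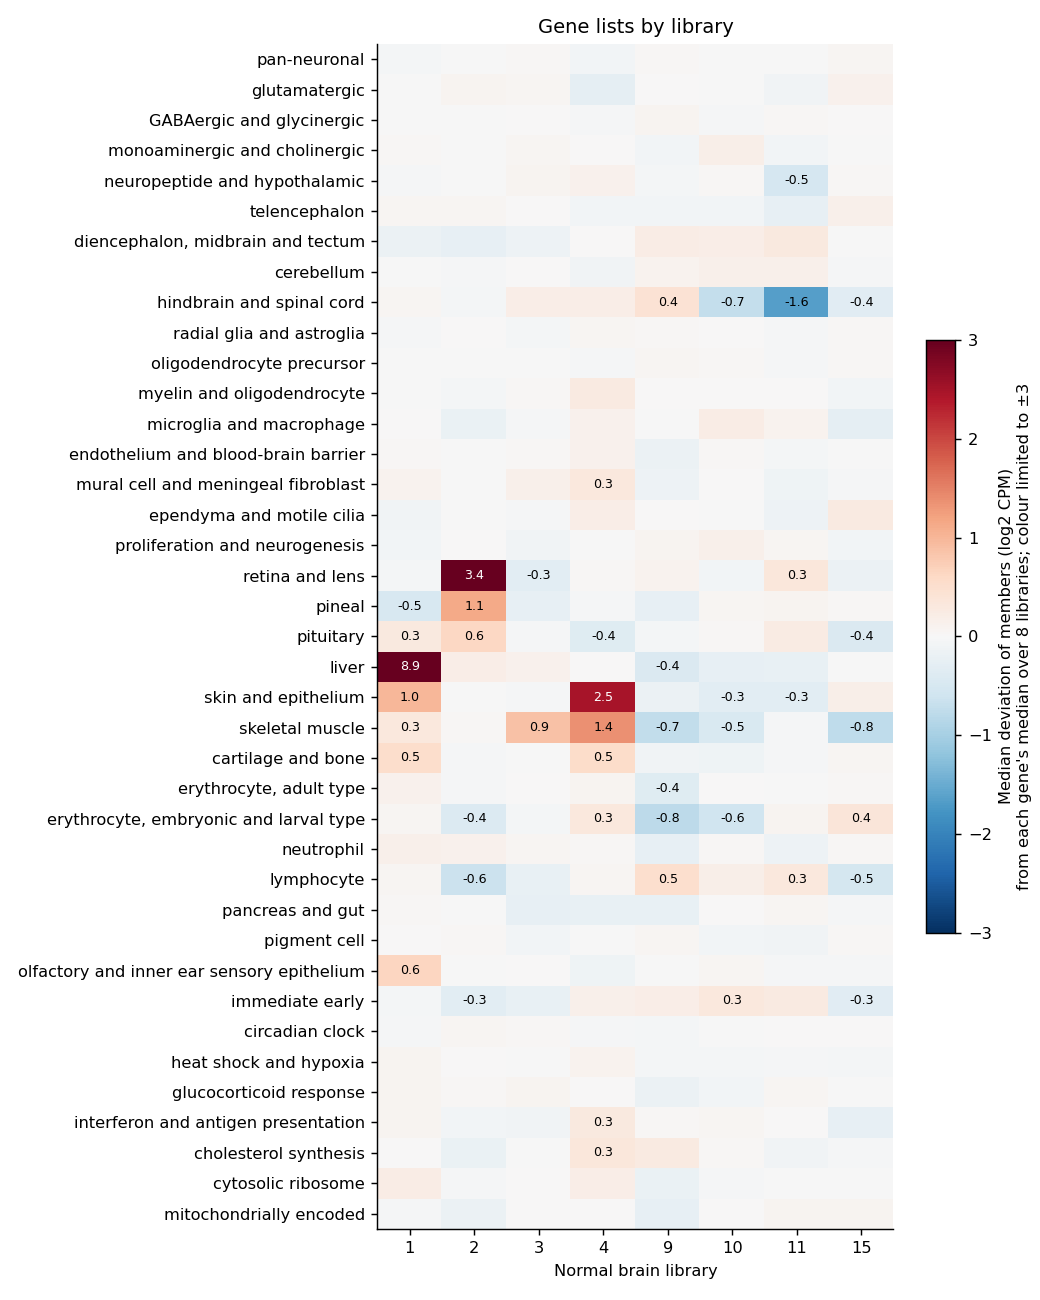
Median deviation of the members of each of 39 gene lists (log2 CPM) in each of the 8 normal brain libraries from each gene's own median over the libraries; red is above and blue below, the colour is limited to 3 log2 units and values of at least 0.3 are printed. The liver list in normal brain 1 (8.93), the retina list in normal brain 2 (3.41), the skin list in normal brain 4 (2.47) and the hindbrain list in normal brain 11 (-1.65) stand out.

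Several telencephalic genes were lower in normal brain 4, 9, 10 and 11 than in the other 4 libraries. TBR1, a transcription factor of pallial excitatory neurons, had 23.9, 29.3, 20.7 and 27.8 CPM in normal brain 1, 2, 3 and 15. In normal brain 4, 9, 10 and 11 it had 4.71, 7.55, 3.44 and 1.68 CPM. These sets of values did not overlap, and normal brain 11 was the lowest.

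The pattern was shared by other genes known from the pallium and subpallium. EOMES (ENSDARG00000006640), a T-box factor related to TBR1, had 58.8 to 89.4 CPM in normal brain 1, 2, 3 and 15 and 7.80 to 13.7 CPM in normal brain 4, 9, 10 and 11. The pallial factor gene emx3 had 4.85 to 7.70 CPM against 0.258 to 1.72 CPM in these libraries, and BHLHE22 had 68.2 to 96.2 CPM against 21.5 to 30.6 CPM. LHX6, a factor of interneurons born in the subpallium, had 7.25 to 10.9 CPM against 1.74 to 4.45 CPM. Outside the list, the Nogo receptor relative rtn4rl2b followed with 69.7 to 87.7 CPM against 8.53 to 18.1 CPM, and DIO2, the enzyme that activates thyroid hormone, with 167 to 225 CPM against 45.7 to 64.0 CPM. TBR1 and the genes named with it were picked after their values were seen or for a large spread. The share of all genes without overlap between these sets of libraries is not given here, so the number of such genes cannot be weighed.

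Other members of the telencephalic list did not share it. The list holds genes that other regions make as well, and its median member lay between -0.25 and 0.16 log2 units from its own median. LHX9, also made in the diencephalon, had 62.9 to 70.7 CPM in normal brain 1, 2, 3 and 15 and 82.1 to 96.5 CPM in normal brain 4, 9, 10 and 11, the opposite order. EMX2, FOXP2, LHX2 and BCL11A were likewise higher in normal brain 4, 9, 10 and 11 without overlap. EMX2, for example, had 24.7 to 30.0 CPM there against 19.3 to 21.7 CPM. ZIC1, which is strong in the cerebellum, was highest in normal brain 11 at 595 CPM and lowest in normal brain 4 at 326 CPM. The subpallial factors DLX1, DLX2 (ENSDARG00000079964) and DLX5 were lowest in normal brain 11, at 2.37, 1.56 and 3.55 CPM, with 7.48 to 13.6, 4.79 to 8.43 and 5.51 to 14.4 CPM in the other 7 libraries. Of 35 members 10 lay at least 2-fold below their median in normal brain 11, 5 in normal brain 4, 4 in normal brain 10 and 2 in normal brain 9, where 1.88%, 1.27%, 1.08% and 0.935% of all 18295 genes with a mean of at least 1 CPM did. Members such as EMX1 and LHX8 reach a mean of 1 CPM only through the libraries where they are high. The filter thus favours these counts, which are no separate support.

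Many genes of the neuropeptide and hypothalamic list were lowest in normal brain 11. The hormone gene oxt, for isotocin, the fish oxytocin, had 76.8 to 225 CPM in 7 libraries and 6.98 CPM in normal brain 11. The vasotocin gene avp had 4.54 to 11.5 CPM against 1.18 CPM, the melanin-concentrating hormone gene PMCH 2.50 to 15.1 CPM against 0.561 CPM, and agrp, which encodes a peptide that drives feeding, 0.750 to 2.58 CPM against 0.0623 CPM (1 count). The same library was lowest for GAL at 4.36 CPM, for npvf at 0.311 CPM and for gnrh2 at 1.06 CPM. It had no count of HCRT, the orexin gene, which had 0.110 to 0.675 CPM elsewhere. The lowest of these HCRT values lay under the 0.185 CPM that a count of 0 allows in normal brain 11. Of 44 members with a mean of at least 1 CPM 15 were at least 2-fold below their median in normal brain 11, where 1.88% of all genes were. In the other libraries 0 to 3 members were, with 0.525% to 1.27% of all genes. A mean of 1 CPM can be reached through the other 7 libraries alone, which favours the count in normal brain 11. The peptide genes with the highest levels after oxt did not follow it. The PACAP gene adcyap1b had 481 CPM in normal brain 11 and 456 to 722 CPM elsewhere, CARTPT (ENSDARG00000045832) had 119 CPM against 70.5 to 109 CPM, and POMC 103 CPM against 80.6 to 106 CPM.

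A further set of genes was low in normal brain 4 and 11 together. The kisspeptin gene kiss1, known in zebrafish from the habenula, had 4.33 to 7.05 CPM in 6 libraries, 1.1 CPM in normal brain 4 and 0.498 CPM in normal brain 11. The G protein gamma subunit gene gng8 had 6.06 to 9.92 CPM in 6 libraries and 3 counts each in normal brain 4 and 11. Its relative gng14 had 13 to 22.2 CPM against 3.48 and 3.49 CPM, and rap1gapl 10.5 to 12 CPM against 1.93 and 0.934 CPM. These 4 genes were picked after their values were seen.

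HOX genes of the posterior hindbrain and spinal cord were lower in normal brain 10, 11 and 15 than in the other 5 libraries, and the most posterior of those named below had at most 1 count in normal brain 10 and 11. HOXB5 (ENSDARG00000013057) had 14.2, 14.9, 24.0, 28.9 and 30.7 CPM in normal brain 1, 2, 3, 4 and 9. It had 3.13, 0.623 and 9.25 CPM in normal brain 10, 11 and 15. HOXC6, expressed further back along the body, had 2.94 to 11.9 CPM in the first 5 of these libraries, 1 count each in normal brain 10 and 11 and 0.388 CPM in normal brain 15. HOXB8 had 1.5 to 11.9 CPM in the first 5, 0 counts in normal brain 10, 1 count in normal brain 11 and 0.194 CPM in normal brain 15.

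HOX genes known to be expressed further forward kept more of their level in these libraries. HOXB3, which reaches into the middle of the hindbrain, had 14.5 to 19.7 CPM in the first 5 libraries, 12.5 CPM in normal brain 15, 8.65 CPM in normal brain 10 and 1.49 CPM in normal brain 11. HOXB2, expressed further forward still, had 2.80 to 3.64 CPM in the first 5 libraries, 2.2 CPM in normal brain 15, 1.90 CPM in normal brain 10 and 1.49 CPM in normal brain 11. Of 29 members of this list with a mean of at least 1 CPM, 18 were at least 2-fold below their median in normal brain 11, 12 in normal brain 10 and 3 in normal brain 15, against 0 in the other 5 libraries. Of all genes 1.88%, 1.08% and 0.760% were in normal brain 11, 10 and 15. Members such as HOXC6 and HOXB8 reach a mean of 1 CPM only through the libraries where they are high. The filter thus favours these counts, which are no separate support.

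Of the cerebellar and midbrain lists, NEUROD1, cbln12, GATA3, TCF7L2 and OTX2 were present in all 8 libraries and highest in normal brain 11, where 14.1% of all genes were. NEUROD1, expressed in cerebellar granule cells, had 343 CPM in normal brain 4, 417 to 465 CPM in normal brain 1, 2, 3, 9 and 15, 529 CPM in normal brain 10 and 590 CPM in normal brain 11. The precerebellin gene cbln12 had 343 CPM in normal brain 11 and 200 to 276 CPM in the other libraries. The Purkinje cell gene pvalb7 had 127 CPM in normal brain 4 and 151 CPM in normal brain 9, against 192 to 232 CPM elsewhere. GATA3, a factor of midbrain GABA neurons, had 144 CPM in normal brain 11 and 78.8 to 123 CPM elsewhere, and TCF7L2, a factor of the thalamus, 268 CPM against 173 to 260 CPM. OTX2, the forebrain and midbrain factor, had 73.8 CPM against 44.4 to 69.1 CPM. Other midbrain list members were highest elsewhere, such as BARHL1 in normal brain 10, OTX1 in normal brain 9 and lhx5 in normal brain 4. In the cerebellar list, ATOH1 had 0 counts in normal brain 15. Among its members with a mean of at least 5 CPM, slc1a6 had the largest SD, 0.90. Some of the genes named here were picked after their values were seen. CPM can depend on what else a library holds, also after TMM scaling, and the part of this in these values was not tested. None of these regional lists moved by 1 log2 unit except the hindbrain list.

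**Figure D4:**
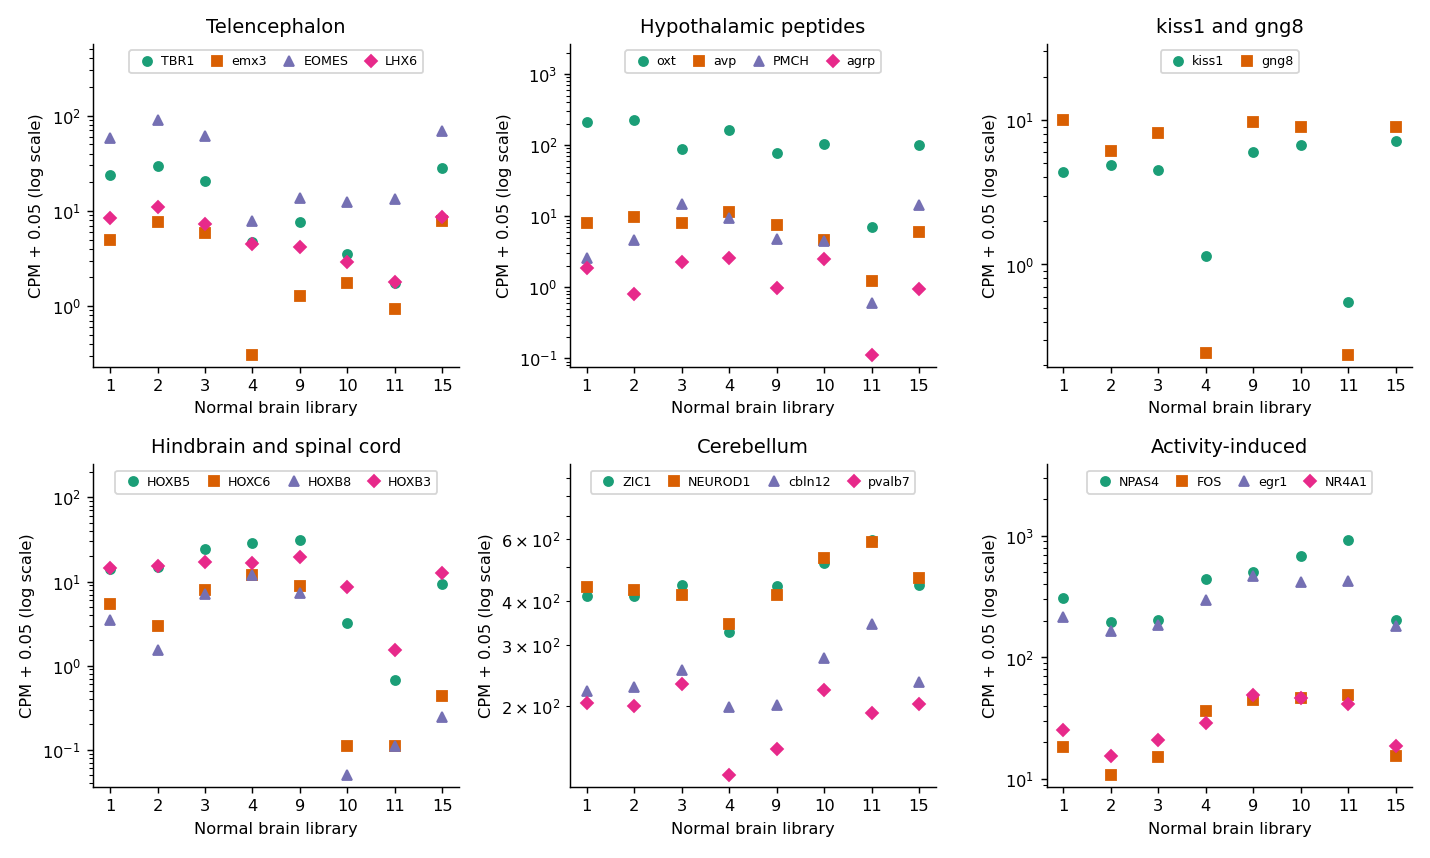
CPM + 0.05 (log scale) of genes of 6 groups in the 8 normal brain libraries; each symbol is a gene. TBR1, emx3, EOMES and LHX6 are low in normal brain 4, 9, 10 and 11, the hypothalamic peptides are low in normal brain 11, kiss1 and gng8 in normal brain 4 and 11, HOXB5, HOXC6 and HOXB8 in normal brain 10 and 11, and HOXB3 most of all in normal brain 11. The activity-induced genes NPAS4, FOS, egr1 and NR4A1 are high in normal brain 4, 9, 10 and 11, and ZIC1, NEUROD1, cbln12 and pvalb7 stay within a narrower range.

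Some immediate early genes, which neurons switch on within minutes of activity or handling, were higher in normal brain 4, 9, 10 and 11 than in the other 4 libraries. NPAS4 (ENSDARG00000055752), an activity-dependent transcription factor, had 439, 508, 689 and 916 CPM in normal brain 4, 9, 10 and 11. In normal brain 1, 2, 3 and 15 it had 311, 194, 202 and 205 CPM. FOS had 36.3 to 49.5 CPM against 10.7 to 18.4 CPM, egr1 297 to 465 CPM against 166 to 216 CPM, egr4 54.5 to 91.8 CPM against 25.4 to 37.6 CPM and NR4A1 29.0 to 49.0 CPM against 15.3 to 25.3 CPM, in the same libraries. JUND, BTG2, fosaa, ier2a, ier2b, IER5, KLF6 and FOSL1 were also higher in normal brain 4, 9, 10 and 11 without overlap (BTG2 with 49.6 to 52.2 CPM against 25.1 to 34.3 CPM and IER5 with 34.8 to 42.8 CPM against 26.5 to 34.1 CPM, for example). These genes were picked after their values were seen, and the other members at 1 CPM or more had overlapping values. The share of all genes without overlap between these sets of libraries is not given here, so the number of such members cannot be weighed. Of 33 members with a mean of at least 1 CPM, 7, 3, 6 and 11 were highest in normal brain 4, 9, 10 and 11, where 17.3%, 14.2%, 10.05% and 14.1% of all genes were. In normal brain 1, 2, 3 and 15, 3, 1, 2 and 0 members were highest, with 14.02%, 10.8%, 9.18% and 10.4% of all genes. The phosphatase gene DUSP2 had 30.4 to 32.9 CPM in normal brain 1, 2 and 3 and 16.6 to 21.9 CPM elsewhere. Those with overlap included JUN, both JUNB copies, EGR3, FOSL2, NR4A3, DUSP1, ATF3, BDNF and the other NPAS4 copy. FOSB was highest in normal brain 1 at 27.8 CPM, with 15.3 to 19.1 CPM elsewhere. Among members with a mean of at least 5 CPM the largest SD was that of klf2a (0.91), with 166 CPM in normal brain 4 and 23.6 to 32.1 CPM elsewhere.

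FKBP5, a target of the glucocorticoid receptor, had 859, 877 and 773 CPM in normal brain 1, 2 and 3 and 393 to 583 CPM in the other 5. KLF9 had 168 to 185 CPM against 98.7 to 142 CPM in the same libraries. In the opposite order, zbtb16b of the same list had 58.2 to 65.6 CPM in normal brain 1, 2 and 3 and 68.0 to 87.5 CPM in the other 5. KLF9 and zbtb16b were picked after their values were seen, and the share of all genes without overlap between these libraries is not given here. Other genes of the glucocorticoid list, such as tsc22d3, sgk1 and PER1 (ENSDARG00000012499), had overlapping values. The median member of that list lay between -0.17 and 0.08 log2 units from its own median. In the clock gene list the median member lay between -0.05 and 0.06 log2 units from its own median, and single members differed between the libraries in both directions. PER2, a light-induced clock gene in zebrafish, had 96.5 to 115 CPM in normal brain 4, 9, 10 and 11 and 156 to 164 CPM in normal brain 1, 2, 3 and 15. PER3, another period gene, had 65.5 to 81.4 CPM and 44.5 to 50.1 CPM in the same libraries. NR1D2 (ENSDARG00000009594) and tefa were likewise higher in normal brain 4, 9, 10 and 11 than in the other 4, and dbpa, dbpb and lonrf1 were lower there, without overlap. Clock members with overlapping values included CLOCK (both copies), NR1D1, BHLHE41 and the other copies of 2 genes above, nr1d2a and tefb. These clock genes were also picked after their values were seen, and their number cannot be weighed for the same lack of a share over all genes. The coagulation factor gene F13A1 (ENSDARG00000045453), which macrophages make, had 23.5, 12.3, 18.7 and 15.5 CPM in normal brain 4, 9, 10 and 11 and 0.550 to 0.874 CPM in normal brain 1, 2, 3 and 15. It was picked after its values were seen. What normal brain 4, 9, 10 and 11 had in common in handling, dissection or age is not stated in the labels, and the part of any of these in the values above was not tested.

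Transcripts of other organs were found at levels that differed between libraries, some in 1 library and others in several. Normal brain 1 held liver transcripts. The apolipoprotein gene apoa2 had 2554 CPM there and 0.0551 to 3.68 CPM in the other libraries, and the fibrinogen genes fga, FGB and FGG had 734, 547 and 498 CPM, with at most 0.879 CPM of fga and 0.275 CPM of FGG elsewhere. The liver fatty acid binding gene fabp10a had 755 CPM against 0 to 0.647 CPM. Of 33 liver genes at 5 CPM or more 29 were variable (1.99% of all genes were). Of 37 at 1 CPM or more 33 were at least 2-fold above their median in normal brain 1, where 3.65% of all genes were. Genes such as fga, FGG and fabp10a reach these means only through normal brain 1. The filter thus favours both counts, which are no separate support. The summed liver list had 11861 FPKM in that library and 140 to 295 FPKM in the others. Some inner ear genes were high in the same library, where 8 of the 18 members of the olfactory and inner ear list at 1 CPM or more were at least 2-fold above their median. Among them were a copy of OTOF (ENSDARG00000020581) with 39.2 CPM against at most 0.687 CPM, otomp with 18.5 CPM against at most 1.94 CPM and TECTA with 22.8 CPM against at most 5.18 CPM. Of 32 cartilage and bone genes 14 were at least 2-fold above their median there. Among them was the cartilage collagen gene COL2A1 (ENSDARG00000069093), with 91.6 CPM against at most 4.40 CPM. Members of the ear and cartilage lists, too, can reach 1 CPM through this library alone, as the OTOF copy did, which favours these counts. The summed pan-neuronal list was 8668 FPKM there, the lowest of the 8.

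Normal brain 2 held transcripts of photoreceptor cells, which zebrafish have in the retina and in the pineal organ. The retinal binding protein gene rbp4l had 118 CPM there and 0.440 to 5.54 CPM elsewhere. The rod gene GNAT1 had 51.2 CPM, against at most 2.37 CPM, and RCVRN, a photoreceptor calcium sensor, 67.0 CPM against at most 2.49 CPM. Of 31 retina and lens genes 23 were at least 2-fold above their median in this library, where 0.793% of all genes were. A mean of 1 CPM, needed to be counted, can be reached through this library alone, which favours the count. Some pineal genes followed. ASMT, which makes melatonin, had 38.2 CPM against at most 2.37 CPM. The gene aanat2, for the enzyme before it in that path, had 8.31 CPM against at most 2.37 CPM. Other members of the pineal list did not follow. The gene asmt2 had 24.3 CPM in normal brain 2 and 21.1 to 23.9 CPM in the others, and TPH2 was highest in normal brain 11. Another pineal gene, parapinopsinb, had 36.8 CPM in normal brain 2 and 22.6 to 28.9 CPM in the others. Growth hormone (gh1), of the pituitary, had 21.4 CPM in normal brain 2, 3.23 CPM in normal brain 1, 2.45 CPM in normal brain 10 and at most 0.623 CPM in the other 5.

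Normal brain 4 held transcripts of skin and higher levels of some bone and muscle genes. The keratin gene krt5 had 2595 CPM there, 146 CPM in normal brain 1 and 20.7 to 92.8 CPM in the other 6, and krt97 had 268 CPM against at most 6.76 CPM. Of 38 skin and epithelial genes 32 were at least 2-fold above their median in normal brain 4 and 19 in normal brain 1, where 2.67% and 3.65% of all genes were. Members of this list and of the bone list can reach a mean of 1 CPM through a high library alone, which favours such counts. Of the 32 cartilage and bone genes 11 were at least 2-fold above their median in normal brain 4. The copies of COL10A1, the collagen of bone-forming cells (ENSDARG00000101535 and ENSDARG00000054753), had 43.2 and 50.9 CPM against at most 2.55 and 5.89 CPM, while PHEX and entpd5b had 3.87 and 4.32 CPM there against 2.91 to 4.63 CPM and 5.18 to 7.48 CPM. COCH, a matrix protein of the inner ear, was high in both normal brain 1 and 4, at 389 and 267 CPM against 4.72 to 11 CPM.

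Many muscle genes were graded over several libraries. Of 38 members at 1 CPM or more, 22 were at least 2-fold above their median in normal brain 4, 17 in normal brain 3 and 6 in normal brain 1, where 488, 183 and 668 of 18295 genes were. The myoglobin gene mb was high in 1 library, with 151 CPM in normal brain 1 and 1.68 to 6.40 CPM in the others. The creatine kinase gene ckma had 59.7 CPM in normal brain 3, 31.5, 23.1 and 18.6 CPM in normal brain 4, 1 and 2, and 2.13 to 5.05 CPM in the other 4. The summed muscle list was 547 FPKM in normal brain 3 and 674 FPKM in normal brain 4, and 149 and 154 FPKM in normal brain 9 and 15. Of 21 muscle genes at 5 CPM or more 12 were variable, where 1.99% of all genes were. A mean of 1 or 5 CPM can be reached through a few high libraries, which favours this count and those at 1 CPM or more.

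Some genes were all but without reads in some libraries and well counted in others. There were 73 genes with at most 3 counts in a library and at least 50 counts in 2 or more (0.324% of the table), of which 67 had a symbol. The immune receptor gene nlrc11 had 1 count in normal brain 3 and 762 to 1925 counts in the other 7. The gene si:ch211-181d7.2 had the same profile, 1 count in normal brain 3 and 488 to 1230 counts in the others. In normal brain 4 alone, sc:d217 had 2 counts, with 345 to 832 in the others, and tgm2l, a transglutaminase gene, had 1 count in normal brain 15 and 76 to 152 in the others.

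Others were shared by sets of libraries that cut across the regional sets. The gene si:ch211-114l13.1 had 0 counts in normal brain 1 and 10 and 244 to 583 in the other 6. The copy of KYAT3 with ID ENSDARG00000101791, an enzyme of kynurenine metabolism, had 0, 0 and 1 counts in normal brain 4, 9 and 10 and 75 to 158 in the other 5. The cytochrome P450 gene cyp2p7 had 0 counts in normal brain 1, 2, 3 and 10 and 44 to 87 in the other 4. Normal brain 3 and 4 shared genes that had few or no counts in the others. The counts of si:ch211-108c17.2 were 200 and 365 there and 0 in all other libraries, those of zgc:194221 were 135 and 232 against 0, and those of the class I antigen presentation gene mhc1zca 64 and 66 against 1 to 7. Its relative mhc1zea had 25.1 and 27.1 CPM in normal brain 3 and 4 and 10.2 to 10.9 CPM in the other 6. Genes named here beyond the 10 with the highest counts were picked after their values were seen, and whether these fish differ at these genes in their DNA was not tested.

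Among genes with a symbol and a mean of at least 10 CPM, the smallest SD was that of PPM1G, a protein phosphatase gene, at 0.01 log2 units, with 49.0 to 50.3 CPM. The small GTPase gene rap1aa, the adaptor gene CRK and the AMPA receptor gene GRIA3 (ENSDARG00000032737) followed among the 10 smallest, with SDs of 0.02 log2 units. CRK had 127 to 131 CPM and GRIA3 146 to 153 CPM.

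Gene pairs matched by name were mostly used unequally in normal brain. Of 1780 pairs with at least 1 FPKM in the higher copy, 1057 (59.4%) differed at least 2-fold with an adjusted p below 0.05 (limma on the log2 FPKM ratio, Benjamini-Hochberg). The first copy of a pair, the one ending in a or with the lower Ensembl ID, was the higher one in 569 of these pairs and the second in 488. The median ratio of the higher to the lower copy was 2.54-fold over all pairs. It was at least 10-fold in 289 pairs and below 1.5-fold in 459. In 1473 pairs the same copy was higher in all 8 libraries. Of 241 pairs with a copy at 50 FPKM or more 176 were called (73.0%). Pairs named a and b were called in 308 of 484 cases and pairs of a shared symbol in 749 of 1296. Pairs were formed by name alone, and whether each arose in the genome duplication was not checked. The sources used here do not give how reads that match both copies were counted, so the values of near-identical copies are uncertain.

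**Figure D5:**
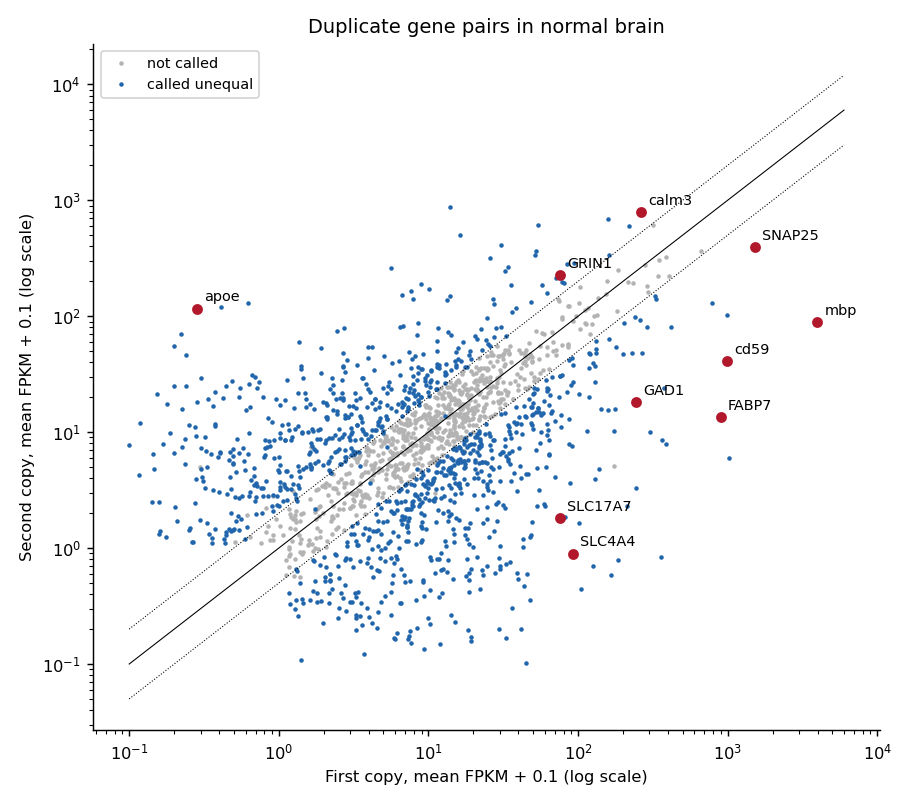
Mean FPKM + 0.1 (log scales) of the first copy against the second copy of 1780 duplicate gene pairs in normal brain, each the mean of 8 libraries; the solid line marks equal levels and the dotted lines 2-fold differences, the 1057 called pairs are blue, with some of them named and in red. Named pairs such as mbp (3973 and 88.6 FPKM) and SLC17A7 (75.8 and 1.72 FPKM) lie far below the solid line and apoe (0.184 and 116 FPKM) far above it.

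In myelin, mbpa had 3973 ± 720 FPKM and mbpb 88.6 ± 24.8 FPKM (SD, n = 8), a log2 ratio of 5.50 ± 0.07 (SE) with a limma adjusted p of 1.35e-12. Both copies were highest in normal brain 4, at 5597 and 149 FPKM. The pair cd59a and cd59b had 996 and 40.8 FPKM, a log2 ratio of 4.60, while cd9a and cd9b lay close, at 47.0 and 58.9 FPKM.

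Among synaptic genes, SNAP25 had 1515 FPKM for ENSDARG00000020609 and 396 FPKM for ENSDARG00000058117. Of 13 pairs of glutamatergic genes 5 were called, where 59.4% of all pairs were. The vesicular transporter gene SLC17A7 had 54.1 to 89.8 FPKM for ENSDARG00000016480 and 1.06 to 2.14 FPKM for ENSDARG00000090106, and the ranges of the copies did not overlap. Its relative SLC17A6, in contrast, had 71.7 and 51.5 FPKM for its copies ENSDARG00000001127 and ENSDARG00000041150 and was not called. The NMDA receptor gene GRIN1 was higher in the second copy, with 75.2 FPKM for ENSDARG00000025728 and 227 FPKM for ENSDARG00000027828, a log2 ratio of -1.59.

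Of 7 pairs of GABA and glycine genes 5 were called, a share near the 59.4% of all pairs. GAD1 had 225 to 279 FPKM for ENSDARG00000027419 and 16.1 to 21.3 FPKM for ENSDARG00000093411, with a log2 ratio of 3.77 ± 0.05 (SE) and a limma adjusted p of 1.20e-12.

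Glial and vessel genes were called in 5 of 6 pairs of the astroglial list and 6 of 6 pairs of the vessel list, where 59.4% of all pairs were. FABP7 had 796 to 1022 FPKM for ENSDARG00000007697 and 4.50 to 27.9 FPKM for ENSDARG00000034650. The lower copy was the more variable, with an SD of log2 CPM of 0.99 against 0.11 for the higher one. The bicarbonate transporter gene SLC4A4 had 92.5 FPKM (ENSDARG00000013730) and 0.795 FPKM (ENSDARG00000044808). The microglial lipoprotein gene apoeb had 116 ± 37.1 FPKM and apoea 0.184 ± 0.219 FPKM, a log2 ratio of apoea over apoeb of -8.87.

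The 10 largest ratios among pairs with a copy at 50 FPKM or more included several metabolic genes and the apoe pair above. PKM, the last enzyme of glycolysis, had 359 FPKM (ENSDARG00000099730) and 0.733 FPKM (ENSDARG00000099860), a log2 ratio of 9.11 ± 0.32 (SE). The glycolytic enzyme gene GPI had 184 and 0.684 FPKM, the glycogen phosphorylase gene PYGM 105 and 0.343 FPKM, and the mitochondrial phosphate carrier gene SLC25A3 166 and 0.485 FPKM, each for the first and second ID in order. The neurite growth gene NRN1 was higher in the second copy, with 0.308 FPKM for ENSDARG00000042656 and 120 FPKM for ENSDARG00000071860, and so were ahcyl2, with 0.0987 and 55.6 FPKM for its a and b copies, and ppm1n, with 0.124 and 70.8 FPKM. The remaining pairs of the 10 were oxct1, a ketone body enzyme, and serpina10, whose log2 ratios of 7.77 and 7.77 varied with SDs of 2.55 and 1.58 between libraries.

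At the other end, 5 pairs with both copies at 50 FPKM or more lay nearest to an equal ratio. They were AP2M1, of the clathrin coat, with 153 and 155 FPKM, the transcription cofactor gene SUB1 with 116 and 118 FPKM, the RNA binding protein genes cirbp with 279 and 275 FPKM and hnrnpa0 with 92.6 and 91.1 FPKM, and the phosphatase gene ptp4a2 with 55.5 and 55.4 FPKM. Their ratios stayed between -0.24 and 0.22 log2 units in all libraries, and limma adjusted p-values were 0.462 to 0.811.

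For some pairs the ratio itself differed between libraries, and the copies followed different regional or tissue patterns. The gene rtn4rl2a had a steady 49.7 ± 6.36 FPKM while rtn4rl2b followed TBR1, and their log2 ratio ran from 0.72 to 3.97. The copies of the complexin gene CPLX3 did likewise, with log2 ratios of -4.51 to -0.67. ENSDARG00000062508, its first copy, had 22.0, 19.3, 8.90 and 17.0 CPM in normal brain 1, 2, 3 and 15 and 1.25 to 3.03 CPM in normal brain 4, 9, 10 and 11. The EOMES copies ran against each other. ENSDARG00000104243 was highest in normal brain 11 at 16.3 CPM, where ENSDARG00000006640 had 13.3 CPM, and the log2 ratio of ENSDARG00000006640 over ENSDARG00000104243 was 4.12 in normal brain 2 and -0.25 in normal brain 11. The copies of HOXB5 (ENSDARG00000013057 and ENSDARG00000054030) moved together, with 8.82 and 7.98 FPKM on average and log2 ratios of 0.01 to 0.36. The pairs fabp10, ces2 and diablo made up the 5 pairs of the largest SD together with rtn4rl2 and CPLX3. In all 3 the first copy was the higher one in normal brain 1, the library with liver transcripts, and the lower one in the other 7. For fabp10 the log2 ratio was 8.70 in normal brain 1 and its mean of -2.03 ± 1.37 (SE) was not called (limma adjusted p = 0.179).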

How the data were processed

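RNA was extracted with RNeasy kits and libraries were made from oligo dT selected RNA, per the labels' protocols. Novoalign 2.08.01 and DESeq2 were used, per the submitters' processing notes, which give no order. The sources used here do not name the counter, genome build or annotation, so genes are named by Ensembl ID, of which 20915 of 22513 had a symbol. The deposited table holds whole read counts per gene and FPKM, both by the authors, per the file headers. Its log2 fold change and adjusted p-value columns, also deposited by the authors, compare tumors with normal brain and were not used here. No libraries held identical counts.

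Counts were scaled with edgeR 4.0.16 (TMM) and log2 CPM were taken with a prior count of 2. Duplicate pairs were tested with limma 3.58.1 (intercept only, trended eBayes, two-sided) on log2 ratios of FPKM with a pseudocount of 0.1, which shrinks the ratios of low copies, and called at an adjusted p below 0.05 and at least 2-fold. For a single pair the exact sign-flip permutation test over 8 libraries cannot go below p = 0.00781. Spread, lists and genes without reads were described, with no test. The scripts were tested on simulated data. Of 1204 gene names in 39 lists 997 were found, giving 1248 list entries.

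Named genes are the 15 most abundant, the highest 3 of each brain list, the highest and most variable of each other list, the 20 most and 10 least variable, the 15 most variable over the middle 6 libraries and the 10 genes with reads in some libraries only that reach the highest counts. Named pairs are the 10 most unequal, the 5 nearest to equal and the 5 with the most variable ratio. Other genes were picked after their values were seen. The normal brain libraries, gene lists and tests were chosen with earlier results of these data known. Alternatives were other scalings (library size alone, RLE), a prior count of 0.5, DESeq2 1.42.0 variance-stabilized counts, other filters and pseudocounts, and leaving out libraries. Some genes that these rules name are not reported here.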

Additional observations from a re-analysis of the deposited data

Results flagged for a closer look

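Each list shift, abundance and named gene was screened for a library whose gap to its nearest neighbour, as a share of the range of the 8 libraries, was over the 95% limit of Dixon's test. Of 194 groups of values screened 53 passed. Chance flags about 1 in 20 groups, but that rate does not apply here, since many of the genes were named for a large spread or for an absence of reads in a library, which favours an outlying library, and list members are not independent of each other.

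Of the list shifts (log2 CPM), liver (8.93) and inner ear and olfactory epithelium (0.64) were high in normal brain 1, retina (3.41) and pineal (1.14) in normal brain 2, and skin (2.47) and myelin (0.27) in normal brain 4. The neuropeptide list was low in normal brain 11 (-0.50) and the adult erythrocyte list in normal brain 9 (-0.35).

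Most of the genes were high in normal brain 1. The lipoprotein and lipid genes among them had 3906 CPM (apoa1b), 1078 CPM (apoc1), 2554 CPM (apoa2), 755 CPM (fabp10a), 1183 CPM (apobb.1) and 32.9 CPM (ldlra). Coagulation and complement genes had 547 CPM (FGB), 498 CPM (FGG), 734 CPM (fga), 401 CPM (c9), 852 CPM (c3a.1), 264 CPM (cfb) and 219 CPM (cfhl4). Other secreted plasma proteins had 564 CPM (fetub), 190.3 CPM (apcs), 328 CPM (serpina1), 215 CPM (serpina1l), 230.1 CPM (ahsg2) and 317 CPM (itih3b.2). The rest had 293 CPM (zgc:123103), 195 CPM (ENSDARG00000090722), 151 CPM (mb, myoglobin), 96.6 CPM (fbp1b), 66.3 CPM (pnp4b), 7.20 CPM (prl2), 39.2 CPM (the OTOF copy ENSDARG00000020581) and 153 CPM (the GRIA3 copy ENSDARG00000032737, whose range is narrow).

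In normal brain 2, rbp4l (118 CPM) and ASMT (38.2 CPM) were high. In normal brain 4, mbpa (14880 CPM), krt5 (2595 CPM), krt97 (268 CPM), DCN (98.4 CPM), klf2a (166 CPM), fgfbp2a (80.5 CPM) and the COL10A1 copy ENSDARG00000101535 (43.2 CPM) were high, and the CAMK2B copy ENSDARG00000011065 (634 CPM), sc:d217 (0.129 CPM) and ela2l (0.322 CPM) were low. In normal brain 3, nlrc11 and si:ch211-181d7.2 were low, each at 0.055 CPM. In normal brain 9, MT-ND6 was low (896 CPM) and CUL4B high (86.4 CPM). In normal brain 11, oxt was low (6.98 CPM) and BHLHE40, a clock-related repressor, high (443 CPM).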

How the results depend on the processing

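Scaling by library size alone or by RLE, and a prior count of 0.5, left the number of variable genes at 272 to 278 and the number of shifted lists at 6. With DESeq2 variance-stabilized counts there were 73 variable genes and 1 shifted list, and the SDs of 69 of 151 named genes moved, as did 6 by library size alone. Without a filter on low counts 1327 genes were variable, and 85 at a mean of at least 20 CPM. The share of the 100 most abundant genes was 20.4% by counts. Genes with reads in some libraries only numbered 256 when 20 counts were enough. Unequal pairs numbered 647 at a mean of at least 10 FPKM in the higher copy and 308 among pairs named a and b, both by testing fewer pairs. On the same 1780 pairs a pseudocount of 1 FPKM gave 934 (52.5%) and the count ratio without length 1195 (67.1%).

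Leaving out each library in turn gave 141 to 312 variable genes (141 without normal brain 1), 50 to 69 genes with reads in some libraries only, 4 to 6 shifted lists, 1052 to 1060 unequal pairs, 16550 to 16810 genes at 1 FPKM and a share of 32.7% to 33.2%. Without normal brain 1, 2 and 4 there were 73 variable genes, 29 genes with reads in some libraries only and 2 shifted lists. Leaving out these 3 libraries, the list shift and its threshold were chosen after seeing the data. No paired analysis was possible because the libraries form a single group. At these depths genes under about 0.2 CPM rest on 3 counts or fewer. The cause of the differences between settings was not tested.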
